A study of Homo sapiens with 26 samples.

Results

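SORCS2 and SORT1, receptors of the sortilin family, were followed through 26 libraries of Huh7 cells exposed to PF-06446846. Huh7 is a human hepatocellular carcinoma line, and PF-06446846 is a small molecule that acts on the translating ribosome. Members were taken as the transcripts in the deposited codon-by-codon counts that GENCODE names SORCS2, SORT1 or SORL1. Of these 3 genes, 2 had a transcript among the 12325 in the files, and SORL1 is not analysed here because no transcript matched its name. The same holds for SORCS1 and SORCS3, the other receptors of the family. SORCS2 was chosen by its low ribosome footprint counts in cells given 1.5 μM of the compound for 60 min, so its values in those libraries are given as a description with no test.

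All cultures were Huh7, a single line, and the vehicle was 0.5% DMSO. In study 1, ribosome profiling (ribo-seq, the sequencing of mRNA fragments protected by ribosomes) was done after 10 min and after 60 min of exposure to the compound at 1.5 or 0.3 μM, or to vehicle alone, with 3 biological replicates in each of the 6 groups. Study 2 compared 60 min at 1.5 μM with vehicle, with 2 replicates each, and sequenced footprints and mRNA from the same cultures. Reads in coding sequences (CDS) numbered 6414227 to 22224137 per ribo-seq library and 15227654 to 22036358 per mRNA-seq library. Of 8 hepatocyte markers, 7 were matched, with AFP at 8878 to 14910 RPM (reads scaled to the CDS total of the library, as in CPM). ALB, which defines hepatocytes, was not matched. Of 6 neuronal markers, 3 were matched, SNAP25 at 7.88 to 17.8, SYP at 6.03 to 10.4 and SYT1 at 0.178 to 1.64 RPM.

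Sortilin family proteins are type I membrane receptors that share a VPS10 domain, a beta-propeller at the luminal end that binds their ligands. They are made with a propeptide that furin removes in the Golgi, and they carry cargo between the Golgi, the endosomes and the cell surface, sorted by GGA and AP-1 clathrin adaptors on the way out and by retromer on the way back. SORCS2 is best known in neurons, where it binds proneurotrophins together with the neurotrophin receptor NGFR. SORT1, or sortilin, is widely expressed, binds neurotensin, progranulin and proneurotrophins, and in liver cells sorts apolipoprotein B.

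SORCS2 (ENSG00000184985, transcript ENST00000507866) lies on the plus strand at chr4:7192538-7742827 (GRCh38, GENCODE v44). It has 27 exons and a CDS of 1160 codons with the stop. SORT1 (ENSG00000134243, ENST00000256637) lies on the minus strand at chr1:109309575-109397918, with 20 exons and 832 codons. Codons 1 to 160 of SORCS2 and 1 to 102 of SORT1 start in exon 1, and both transcripts had as many codons in the annotation as in the deposited counts. The beginning of SORCS2 was rich in G and C, at 85.3% in codons 1 to 50 and 60.8% in the remaining CDS. In SORT1 the same windows held 78.7% and 48.6%.

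Short stretches of exon 1 are shown to place the start of the SORCS2 CDS, the codons near it where footprints lay in some libraries, described further on, and a covered SORT1 codon. The capitals mark the start codon, codon 25, 40 or 46 of SORCS2, whose footprint counts are given further on, or a SORT1 codon with many footprints, in that order.
SORCS2 codons 1 to 10, chr4:7192647-7192676, plus strand: ATGgcgcaccgggggccctcgcgcgcctcg
SORCS2 codons 21 to 30, chr4:7192707-7192736, plus strand: agccccggggctCCGccgccgccgcgctcg
SORCS2 codons 36 to 45, chr4:7192752-7192781, plus strand: ctcctgctgctgCTGctgctgctgggcgcc
SORCS2 codons 42 to 51, chr4:7192770-7192799, plus strand: ctgctgggcgccTGCggggcggcggggcgc
SORT1 codons 77 to 86, chr1:109397635-109397664, minus strand: cgcagcgcgccgGGCgaggacgaggagtgc
Codons 36 to 43 of SORCS2 were 8 leucine codons in a row, and they were the only leucine codons among the first 50. SORT1 had 12 leucine codons among its first 50, with a longest run of 5 from codon 20, and so held more leucine codons there than SORCS2 but no run as long. A run of 8 or more leucine codons within codons 1 to 50 was found in 28 of 10224 transcripts checked, or 0.274%. No stretch of 28 bases in the SORCS2 or SORT1 CDS occurred in another named CDS. At 23 bases, the length of the authors' alignment seed, 7 of 3458 stretches of SORCS2, between codons 35 and 97, also occurred in 9 other transcripts. Some reads at the leucine run could therefore have come from elsewhere, and how many was not tested.

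SORCS2 was expressed at a low level and SORT1 at a moderate one. In vehicle-treated cells of study 2, SORCS2 had a mean of 4.29 footprint RPM per kb of CDS and SORT1 had 31.7. These levels stood above 23.1% and 66.4% of the 12325 transcripts. The mRNA levels were 7.29 and 19.4 RPM per kb, above 27.1% and 50.8% of transcripts. The translational efficiency (TE), the footprint level divided by the mRNA level, was 0.589 for SORCS2 and 1.63 for SORT1, against a median of 0.988 over 9278 transcripts. SORCS2 thus ranked above 24.2% of them in TE, and SORT1 above 75.6%.

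After 10 min, SORCS2 footprints fell at 1.5 μM PF-06446846 to 34.6% of the vehicle mean. The 1.5 μM libraries held 3.06, 4.10 and 4.00 RPM, from 21, 40 and 38 reads (mean 3.72 ± 0.576, SD, n = 3). The vehicle libraries held 8.76, 11.0 and 12.5 RPM, from 151, 137 and 106 reads (10.7 ± 1.87, n = 3). Every 1.5 μM library was below every vehicle library, as was so for 1663 of the 11077 transcripts with a mean of at least 10 reads (15%). The log2 fold change of SORCS2 footprints at 10 min was -1.44 ± 0.218 (SE), with an adjusted p of 0.0160 in edgeR's quasi-likelihood test. At a false discovery rate (FDR) of 0.1, 0.851% of 11045 transcripts were called in this comparison, 0.389% as lower and 0.462% as higher. Leaving out 1 library at a time kept the log2 fold change between -1.58 and -1.31, and the call was lost without 1.5 μM replicate 1 (-1.34, edgeR adjusted p = 0.113). These libraries were not those in which SORCS2 was chosen, but results of the whole series were known at that time. No mRNA was sequenced at 10 min, so less SORCS2 mRNA and fewer footprints per mRNA cannot be told apart at that time. These are bulk libraries, which give no level per cell. At 60 min in study 2, SORCS2 mRNA stood at 114% of vehicle.

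After 60 min, the same difference was seen in study 1 and in study 2. In study 1, SORCS2 stood at 4.09, 6.01 and 5.42 RPM at 1.5 μM (5.17 ± 0.979) and at 11.7, 16.5 and 14.7 RPM in vehicle (14.3 ± 2.42), or 36.2% of vehicle. In study 2 it stood at 5.42 and 5.54 RPM at 1.5 μM (5.48 ± 0.0915, n = 2) and at 16.6 and 13.3 RPM in vehicle (14.9 ± 2.35, n = 2), or 36.7%. Every 1.5 μM library was below every vehicle library in both studies. Of all transcripts with at least 10 reads on average, 2.94% were that way in study 1 and 14.2% in study 2. The log2 fold changes were -1.52 ± 0.232 (SE) and -1.46 ± 0.187. In the background of these comparisons, 0.0726% of 11021 transcripts were called in study 1, all lower (0% higher), which were 8 transcripts without and 51 with a replicate block. In study 2, 0.115% of 11263 were called, 0.107% as lower and 0.00888% as higher. The log2 difference between the effects at 60 and 10 min was -0.09 ± 0.327. As the 60-min values chose the gene, nothing is read from these counts.

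**Figure D1:**
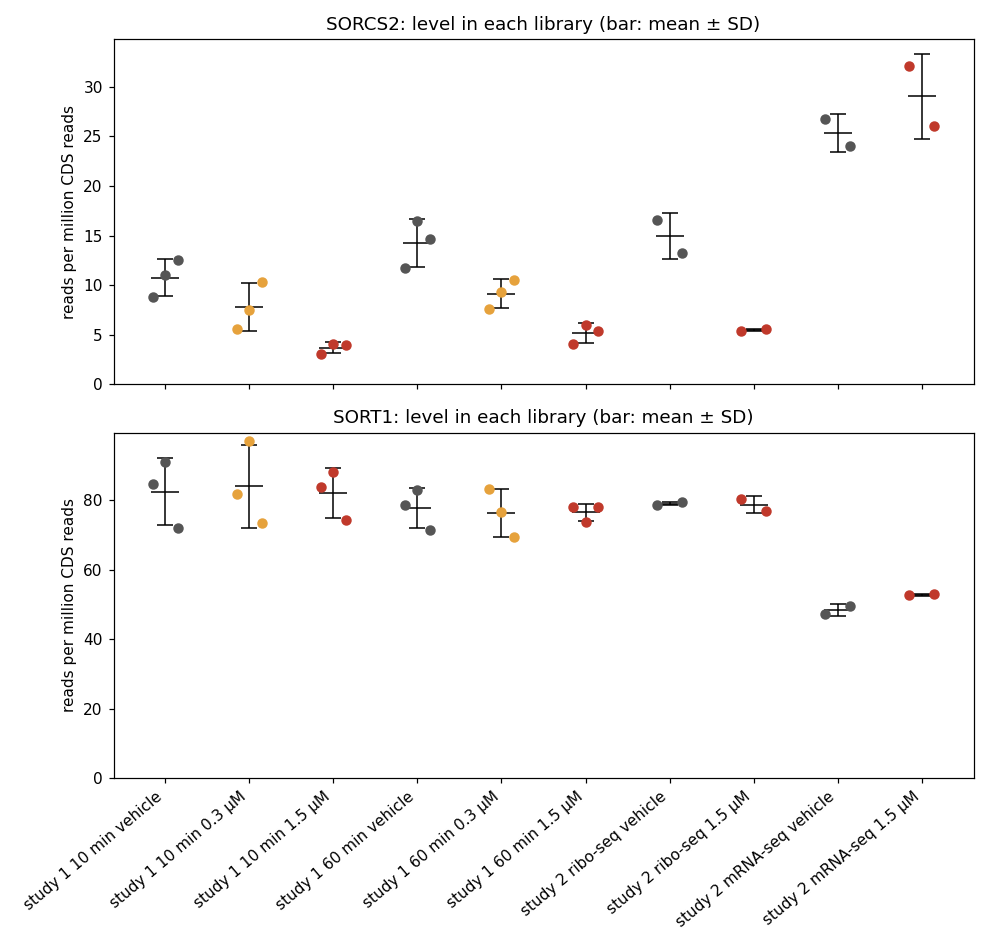
Footprint and mRNA levels of SORCS2 and SORT1 in RPM (y axis) in each library, by group (x axis), with the group mean and SD. SORCS2 was between 3.06 and 6.01 RPM in the 8 ribo-seq libraries given 1.5 μM and between 8.76 and 16.6 RPM in the 8 vehicle libraries, whereas SORT1 was between 69.4 and 96.9 RPM in all 22.

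The low dose lay between vehicle and the high dose. At 0.3 μM for 10 min, SORCS2 had 5.54, 7.54 and 10.3 RPM (7.79 ± 2.39), or 72.5% of vehicle, and the range overlapped that of vehicle. The 0.3 μM library was the lower one in each of the 3 same-numbered pairs. The share of all transcripts that were that way was not counted, so nothing is read from it. The log2 fold change was -0.43 ± 0.241, and -0.46 ± 0.174 with a replicate block (edgeR adjusted p = 1.00 in both). It was -0.23 without 0.3 μM replicate 1 and -0.65 without 0.3 μM replicate 3, the ends of the range with 1 library left out. At 0.3 μM for 60 min, the libraries held 7.57, 9.35 and 10.5 RPM (9.15 ± 1.49), or 64.1% of the vehicle mean. All were below the lowest vehicle library of 11.7 RPM, as in 2.20% of transcripts. The log2 fold change was -0.67 ± 0.201, given without a test because this comparison used the vehicle libraries of the one that chose SORCS2. In edgeR, 0 transcripts (0%) were called at 0.3 μM at either time, and DESeq2 also called 0 in both. At an unadjusted p under 0.05 in edgeR there were 104 of 11131 at 10 min and 97 of 11141 at 60 min. Both counts were fewer than the test should give with no effect. The unblocked fit was thus conservative here, so its lack of calls says little, and the cause was not tested.

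Compared directly, the doses differed in SORCS2 at 10 min by a log2 fold change of -1.01 ± 0.270. Every 1.5 μM library was below every 0.3 μM library, as in 11.0% of transcripts. The edgeR adjusted p was 0.348 without a replicate block and 0.0447 with it, where the log2 fold change was -1.02 ± 0.227. The unblocked fit called 0% of 11032 transcripts, with 1273 at an unadjusted p under 0.05, the replicate block called 390, and DESeq2 called 96 but gave no adjusted p for SORCS2. At 60 min the doses differed by -0.86 ± 0.227, given without a test, and every 1.5 μM library was below every 0.3 μM library, as in 1.80% of transcripts. There, 0 of 11136 transcripts were called by edgeR without a block (99 had an unadjusted p below 0.05) and 30 with it. Those 99 were again fewer than the test should give with no effect. In the order of SORCS2 levels at each time, 1.5 μM was lowest, 0.3 μM intermediate and vehicle highest. The only neighbours in that order that overlapped were 0.3 μM and vehicle at 10 min.

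**Figure D2:**
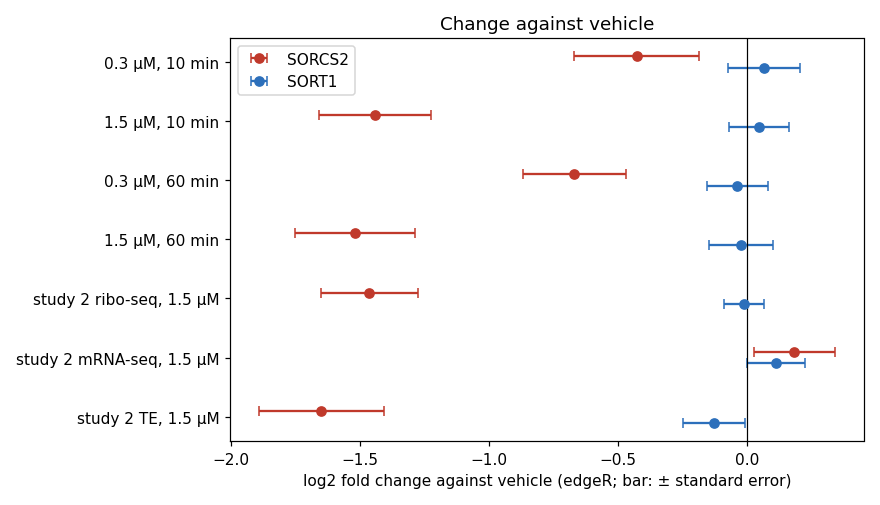
Fitted log2 fold changes of SORCS2 and SORT1 in each comparison (x axis) with bars of 1 SE, from edgeR fits across all transcripts. SORCS2 lies at -1.44, -1.52 and -1.46 in the footprint comparisons of 1.5 μM with vehicle and at 0.18 for mRNA, and SORT1 lies between -0.13 and 0.11 throughout.

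SORT1, the other member with a transcript, was not called in any comparison. At 10 min it had 83.7, 88.3 and 74.2 RPM at 1.5 μM (82.0 ± 7.17) and 84.5, 91.0 and 72.0 RPM in vehicle (82.5 ± 9.67). At 60 min in study 1 it had 77.9, 73.6 and 78.0 RPM at 1.5 μM (76.5 ± 2.51) and 78.7, 83.0 and 71.6 in vehicle (77.8 ± 5.76). In study 2 it had 80.4 and 77.0 RPM at 1.5 μM and 78.7 and 79.4 in vehicle. The groups overlapped each time. The log2 fold changes were 0.05 ± 0.116, -0.02 ± 0.124 and -0.01 ± 0.0771, with edgeR adjusted p-values of 0.854, 1.00 and 0.999. At 0.3 μM the SORT1 means were 84.0 ± 11.9 RPM at 10 min and 76.3 ± 6.89 at 60 min, with log2 fold changes of 0.07 ± 0.138 and -0.04 ± 0.119 against vehicle. Between the doses SORT1 differed by -0.01 ± 0.125 at 10 min and 0.01 ± 0.107 at 60 min. The test of a change of effect with time gave -0.08 ± 0.157 for SORT1 (edgeR adjusted p = 0.920).

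The SORCS2 to SORT1 ratio within a library does not depend on the scaling between libraries. At 10 min the log2 ratio of reads was -4.78, -4.43 and -4.21 at 1.5 μM (-4.47 ± 0.283) and -3.27, -3.05 and -2.53 in vehicle (-2.95 ± 0.382). The groups did not overlap, and the difference was -1.52 (two-sided exact permutation p = 0.1, the smallest that 3 against 3 allows, and 0.4 after Benjamini-Hochberg adjustment over 16 tests at 10 min). At 0.3 μM for 10 min the log2 ratio was -3.47 ± 0.557, and the difference from vehicle had an unpaired exact permutation p of 0.3. The ratio was lower in each of the 3 same-numbered pairs, which was not counted for other transcripts. At 60 min the mean log2 ratio was -3.90 ± 0.321 at 1.5 μM, -3.07 ± 0.371 at 0.3 μM and -2.46 ± 0.257 in vehicle. In study 2 it was -3.84 ± 0.0678 at 1.5 μM and -2.41 ± 0.237 in vehicle.

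The mRNA of SORCS2 was not called in study 2. SORCS2 mRNA stood at 32.0 and 26.0 RPM at 1.5 μM (29.0 ± 4.27) and at 26.7 and 24.0 RPM in vehicle (25.4 ± 1.92), and the ranges overlapped. In vehicle replicate 5 the mRNA reads lay on few codons. SORCS2 had 529 reads on 103 codons there, against 479 on 274 in vehicle replicate 4. SORT1 had 1093 reads on 177 codons, against 845 on 404. The vehicle mRNA levels, and the TE values that use them, rest on these libraries. The log2 fold change was 0.18 ± 0.157 (edgeR adjusted p = 0.999), and 0% of 11812 transcripts were called, with 1 called by DESeq2. In edgeR 228 had an unadjusted p under 0.05, again fewer than the test should give with no effect. Leaving out 1 library gave SORCS2 mRNA log2 fold changes from 0.04 (without 1.5 μM replicate 4) to 0.31 (without 1.5 μM replicate 5). SORT1 mRNA was 52.6 and 52.9 RPM at 1.5 μM and 47.1 and 49.6 RPM in vehicle, with both treated libraries above both vehicle libraries, as in 16.8% of transcripts, and a log2 fold change of 0.11 ± 0.112 (edgeR adjusted p = 0.999). The log2 ratio of SORCS2 to SORT1 differed by 0.06 between treated and vehicle mRNA libraries.

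The TE of SORCS2 and of SORT1 was lower in both treated cultures than in both vehicle cultures, as in 17.8% of 10893 transcripts. For SORCS2 it was 0.169 and 0.213 at 1.5 μM and 0.621 and 0.553 in vehicle, each value from both libraries of 1 culture. The fitted log2 change in TE was -1.65 ± 0.242, given without a test, and 0.0339% of 11799 transcripts were called in the fit. The TE of SORT1 was 1.53 and 1.46 at 1.5 μM and 1.67 and 1.60 in vehicle. Its fitted log2 change of -0.13 ± 0.120 did not pass (edgeR adjusted p = 1.00).

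Along the CDS, SORCS2 footprints were lower at 1.5 μM in the windows after codon 50 and overlapped vehicle in codons 1 to 50 at 10 min. At 10 min, codons 1 to 50 held 0.525 ± 0.591 RPM at 1.5 μM and 0.444 ± 0.342 RPM in vehicle, or 118% (two-sided exact permutation p = 0.9). The 1.5 μM mean rested mostly on replicate 1, as replicates 1, 2 and 3 held 1.16, 0.410 and 0 RPM. Codons 51 to 200 held 0.528 ± 0.181 against 1.44 ± 0.566 RPM, or 36.7%. Codons 201 to 600 held 0.907 ± 0.408 against 4.63 ± 1.01 RPM, or 19.6%. For codons 601 to 1160 the values were 1.76 ± 0.641 and 4.23 ± 0.529 RPM, or 41.6%. In each of the last 3 windows every 1.5 μM library was below every vehicle library, with an exact permutation p of 0.1, the smallest possible, and 0.4 after adjustment. Of 3301 transcripts with over 600 codons, 13.3%, 16.1% and 15.9% were that way in these windows. At 0.3 μM for 10 min, the same windows held 72.6%, 56.7%, 60.8% and 90.7% of vehicle, and all overlapped it. In codons 51 to 200 and 201 to 600 the 0.3 μM library was the lower one in each of the 3 same-numbered pairs. How many other transcripts were that way in these windows was not counted.

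At 60 min the later windows were again lower at 1.5 μM and codons 1 to 50 differed between the studies. In study 1, codons 1 to 50 held 0.313 ± 0.272 RPM at 1.5 μM and 0.421 ± 0.238 in vehicle, with overlap. In study 2 they held 1.48 and 1.18 RPM at 1.5 μM and 0.510 and 0.900 RPM in vehicle, so that both treated libraries were higher, as in 18.3% of 3312 transcripts of that length. After codon 50, the windows stood at 36.2%, 47.3% and 26.2% of vehicle in study 1 and at 31.3%, 27.0% and 30.5% in study 2. How many other transcripts were lower in these windows at 60 min was not counted.

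**Figure D3:**
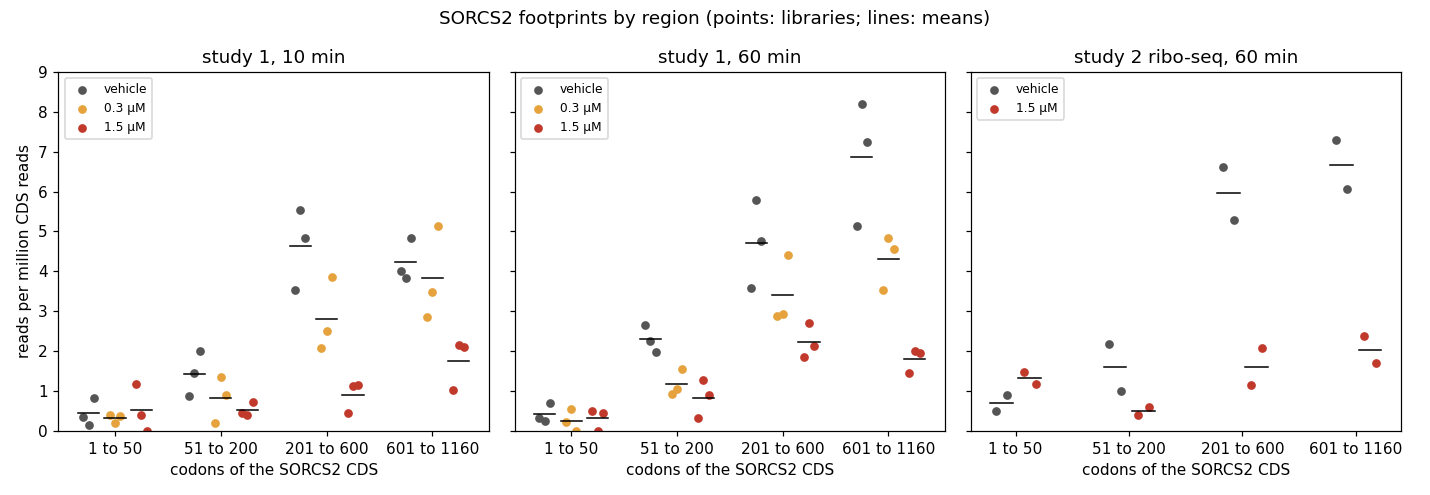
SORCS2 footprints in RPM (y axis) in 4 windows of the CDS (x axis) for each ribo-seq library, by study, time and group, with group means. The 1.5 μM libraries lie below the vehicle libraries in the windows after codon 50, and in codons 1 to 50 they lie above them in study 2, at 1.18 and 1.48 against 0.510 and 0.900 RPM. For the windows after codon 50, the share of all transcripts that were so was counted at 10 min only (13.3%, 16.1% and 15.9%).

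The share of SORCS2 footprints in codons 1 to 50 rested on few reads. At 10 min and 1.5 μM, 8 of 21, 4 of 40 and 0 of 38 reads lay there, or 38.1%, 10.0% and 0% (16.0 ± 19.8). Taking 3 counts as the limit that a count of 0 allows, 0 of 38 allows a share of up to 7.89%, and the upper end of its 95% Wilson interval was 9.18%. The vehicle libraries had 3.97%, 1.46% and 6.60% (4.01 ± 2.57), within the treated range, and the exact permutation p was 0.5 (0.889 adjusted over 16 tests). Without 1.5 μM replicate 1 the difference fell from 12.0 to 0.988 percentage points. Pooled over libraries, 12 of 99 reads lay in the window at 1.5 μM, or 12.1% (95% Wilson interval 7.07 to 20.0), and 15 of 394 in vehicle, or 3.81% (2.32 to 6.19). Intervals and limits here cover counting error only.

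At 60 min in study 1 the share was 12.1%, 0% and 8.20% at 1.5 μM and 2.67%, 1.56% and 4.73% in vehicle, with overlap. Study 2 had 27.3% and 21.3% at 1.5 μM against 3.07% and 6.78% in vehicle. Both treated libraries were higher in this share, as in 18.0% of the 3312 transcripts. The pooled shares in study 2 were 24.1% (34 of 141 reads, 95% Wilson interval 17.8 to 31.8) and 4.34% (15 of 346, 2.64 to 7.03). In the mRNA-seq libraries the share of SORCS2 reads was 3.55% and 3.79% at 1.5 μM and 1.67% and 10.0% in vehicle. For SORT1, the pooled share in the ribo-seq groups was between 1.75% and 4.20%, and at 10 min it was 4.28 ± 1.53% at 1.5 μM and 2.82 ± 0.180% in vehicle (exact permutation p = 0.3).

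Within the window, reads lay mostly at the leucine run shown above in vehicle cells, and also at codons 25 and 46 in cells given 1.5 μM in study 2. Codon 40, the fifth leucine codon, had the most footprints of any SORCS2 codon over the 22 ribo-seq libraries, 50 of 2345 reads or 2.13%, from 19 libraries. It had 8, 7 and 6 reads at 1.5 μM, 0.3 μM and vehicle after 10 min and 9, 5 and 9 reads after 60 min in study 1. As shares of all SORCS2 footprints of the group, these were 8.08%, 2.35% and 1.52% at 10 min and 4.64%, 1.27% and 1.88% at 60 min, and 1.42% at 1.5 μM and 1.16% in vehicle in study 2. At 1.5 μM, replicate 1 held 5 of the 8 reads at 10 min and 7 of the 9 at 60 min, and without it the shares were 3.85% and 1.94%. Without replicate 3, which had 0 of these reads at 10 min, the 10 min share was 13.1%. Of the other groups, leaving out 0.3 μM replicate 2 and vehicle replicate 3 at 60 min gave 0.415% and 1.21%. Leaving out 0.3 μM replicate 3 and vehicle replicate 2 gave 1.94% and 2.69%. With 1 library left out, the shares of 1.5 μM and vehicle at 60 min thus overlapped. In study 1 vehicle cells, codons 36 to 45 held 14 of the 15 reads in codons 1 to 50 at 10 min and 13 of 13 at 60 min. In study 2 these 10 codons held 11 of 15 reads in vehicle but 9 of 34 at 1.5 μM. Of the latter 34 reads, codon 46 had 10 and codon 25 had 6, from both treated libraries, and the vehicle libraries had 0 at each. Codons 46 and 25 were named because they were the most covered SORCS2 codons of that treated group. Their difference from vehicle was therefore built in, and nothing is read from it. The share of other transcripts that were so was not counted. The mRNA-seq libraries also had more reads near the run at 1.5 μM. There, codon 40 had 7 reads at 1.5 μM and 0 in vehicle, and codons 36 to 45 had 15 and 6. Codon 46 had 2 and 0 mRNA reads, and codon 25 had 0 in both groups. In study 1, codons 25 and 46 had 0 or 1 read in every group. The most covered codons of SORT1 lay far downstream or at codon 81, shown above, which held 1.22% of SORT1 reads at 1.5 μM, 1.09% at 0.3 μM and 1.07% in vehicle after 60 min in study 1. After 10 min its shares were 0.934%, 0.948% and 0.905% in the same order. In study 2 they were 0.940% at 1.5 μM and 1.45% in vehicle.

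The cumulative share of footprints along the CDS was compared by Dmax, the largest lead of the treated curve over the vehicle curve. Positions where vehicle led were not counted. A Z-score was taken among transcripts of like read number. For SORCS2, Dmax was 0.128 at codon 155 at 10 min (Z = 0.930) and 0.163 at codon 619 at 60 min in study 1 (Z = 1.77). In study 2 it was 0.216 at codon 77 (Z = 2.13). The Z-score took the root mean square of Dmax as its unit, and in SDs from the mean it was 0.123, 1.82 and 2.43. Only study 2 passed a Z-score of 2, on either scale. On the former, 3.45%, 2.68% and 2.37% of transcripts passed it in these 3 comparisons. Without either 1.5 μM library of study 2 the Z-score was 1.63 or 1.91. For SORT1 the leads were 0.0409, 0.0625 and 0.0544, with Z-scores of 0.546, 1.14 and 1.61.

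**Figure D4:**
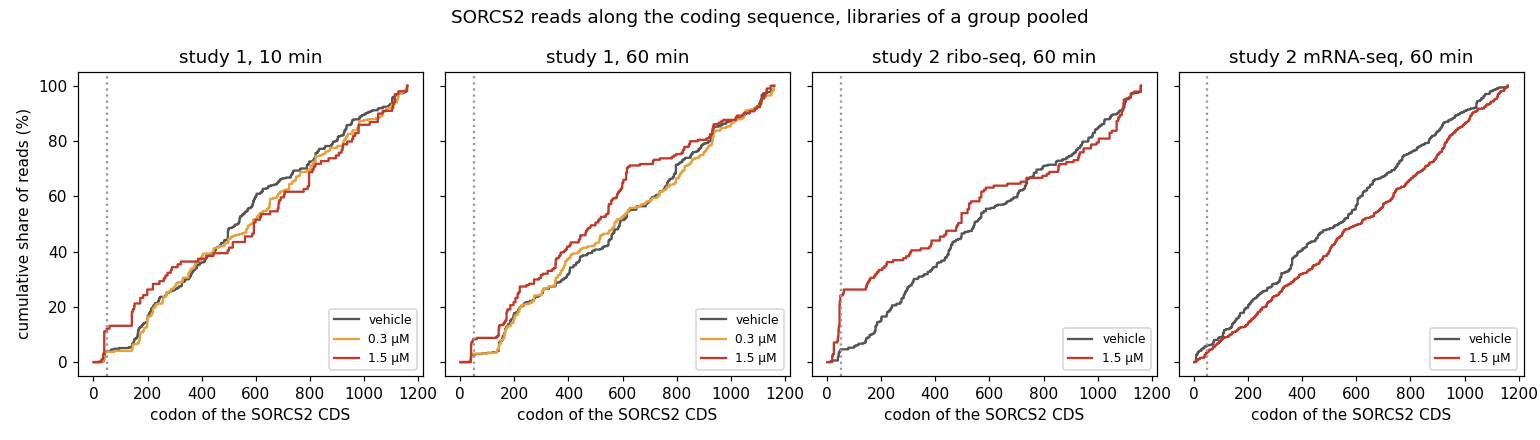
Cumulative percentage of SORCS2 footprints (y axis) by codon from the start (x axis), pooled over the libraries of each group, for 10 min and 60 min in study 1 and for ribo-seq and mRNA-seq in study 2, with a dotted line at codon 50. In the ribo-seq panels, the largest lead of 1.5 μM over vehicle is 0.216 of all footprints, at codon 77 in study 2.

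Transcripts with a pattern most like SORCS2 over the 18 libraries of study 1 were ranked by Pearson correlation of log2 CPM, as a description. Among 9689 transcripts with a mean of at least 50 reads, those with the highest r included BCAP31 (r = 0.92, Spearman rho = 0.893), PCBP1 (0.90, 0.835), PCBP2 (0.88, 0.853) and ARF1 (0.88, 0.872). SORT1 had r = -0.20 and rho = -0.267. The libraries of a treatment group and of a replicate number are not independent points.

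Other genes of the sorting pathway were taken from 5 lists. None of their measured members passed unblocked edgeR or DESeq2 at an FDR of 0.1 in any comparison for which a test is read. The unblocked edgeR fits called only 0% to 0.851% of all transcripts, so few calls could fall in the lists. Calls within the lists were not counted with the replicate block, which called more transcripts in several comparisons. Retromer and sorting nexins, which return receptors from endosomes, had 12 of 12 genes tested, with 4 at an unadjusted p under 0.05 at 10 min and 1.5 μM, where 17.7% of all 11045 transcripts were. Their median log2 fold change was -0.15, against 0.01 over all transcripts, with SNX5 at -0.27 and the retromer core subunit VPS35 at -0.27. GGA, AP-1 and clathrin adaptors had 13 of 13 tested, 2 under 0.05 and a median of -0.01, with clathrin heavy chain CLTC at -0.12 and AP1B1 at 0.26. Processing proteases had 8 of 10 tested, 2 under 0.05 and a median of 0.07, with the propeptide protease FURIN at 0.30 and the gamma-secretase subunit NCSTN at 0.06.

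Ligands and co-receptors had 9 of 21 tested, 1 under 0.05 and a median of 0.06, with APOB at -0.16 and the lysosomal precursor PSAP at 0.19. Other Golgi-to-endosome sorting receptors had 7 of 7 tested, 2 under 0.05 and a median of 0.14, with LRP1 at 0.32 and the cation-independent mannose phosphate receptor IGF2R at 0.14. At 60 min the medians of the 5 lists, in the same order, were -0.01, -0.04, -0.03, -0.08 and -0.08 against 0.00 over all transcripts, rounded. SORCS2 stood at -1.44 and -1.52 in the same 2 comparisons, and SORT1 at 0.05 and -0.02. The receptor list holds LRP8, for which no test is read at 60 min because it was chosen by its lower footprints at that time.

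FAM13B and LRP8 were set beside SORCS2 as transcripts that the study names with it for lower footprints at 60 min, so their 60-min values have no test. FAM13B had a log2 fold change of -2.15 ± 0.359 (SE) at 10 min and 1.5 μM (edgeR adjusted p = 0.0266), -3.13 ± 0.417 at 60 min in study 1 and -1.71 ± 0.439 in study 2. These FAM13B values rested on few footprints. The pooled 1.5 μM libraries held 20, 12 and 21 reads in these comparisons, and the vehicle libraries 140, 82 and 60. LRP8, an apolipoprotein E receptor, had 0.01 at 10 min, -0.75 at 60 min in study 1 and -0.42 in study 2.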

How the data were processed

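The authors trimmed the reads, removed rRNA, aligned the rest to the most abundant isoform of each expressed gene (GRCh38), keeping reads with a few equally good sites, and deposited raw counts per P-site codon for each library (the submitters' processing notes name Bowtie 1.1.2 and kallisto 0.42.5). GENCODE v44 named 11270 of the 12325 transcripts. Counts were summed per CDS and RPM taken over all CDS reads. Fits used edgeR 4.0.16 (TMM, filterByExpr, quasi-likelihood test, only the groups compared, Benjamini-Hochberg, FDR 0.1) in R 4.3.3, with DESeq2 1.42.0 as an alternative, and were tested on simulated data. TE was the interaction of assay and treatment. Single values over libraries used exact permutation tests in scipy 1.17.1. Dmax and its Z-score followed the authors' deposited scripts, which divide by the root mean square, whereas the written methods count SDs from the mean, used here as an alternative.

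Genes named were the members, FAM13B and LRP8, the transcripts most like SORCS2 in pattern, and of each list those called and the most covered. Members and lists were chosen with earlier results of these data known. Replicates are separate biological replicates by the labels. Same-numbered libraries deviated together (every correlation over 0.1, lowest 0.153) in each study 1 comparison except 1.5 μM against vehicle at 10 min, whose lowest was 0.0526. Study 2 has only 2 pairs, of its ribo-seq (0.317) and mRNA-seq (0.0936) libraries. Depth was 6414227 to 22224137 CDS reads for ribo-seq, so that SORCS2 rested on 21 to 256 footprints per library. Some items of the series are not reported here.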

Additional observations from a re-analysis of the deposited data

How the results depend on the processing

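Among the member values recomputed, 221 kept their side of the threshold, or moved by less than 1 SD where no test was given. Of the others, 1 lost its call, 1 gained one and 4 moved by more. No called value changed sign. Uncalled values near 0 could, as SORT1 did at 10 min and 1.5 μM, between -0.03 and 0.11 with 1 library left out. SORCS2 at 10 min was between -1.58 and -1.31 (log2) with 1 library left out, and its call was lost without 1.5 μM replicate 1 (-1.34, edgeR adjusted p = 0.113). In study 2 it was between -1.60 and -1.29 in footprints and between -1.79 and -1.47 in TE, both smallest without the ribo-seq vehicle replicate 4. The replicate block brought the 10-min difference between doses past the threshold (-1.02, edgeR adjusted p = 0.0447) and changed no other member's call. With reads after codon 50, SORCS2 moved to -1.79 in study 2 footprints and -1.99 in TE, and its log2 ratio to SORT1 differed by -1.76. Its Dmax Z-score in study 2 was 1.63 to 2.30 with 1 library left out. Leaving out codons 36 to 45, chosen after seeing the data, took the difference in share from 12.0 to 3.05 points at 10 min and from 3.78 to 0.996 at 60 min. With 1 library left out, that difference was 0.988 to 20.0 points at 10 min and 1.11 to 7.16 at 60 min in study 1. Ratios to SORL1 were not run because no transcript matched.

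Counts of called transcripts moved more, and the cause was not tested. Against vehicle at 10 min and 1.5 μM, 94 became 516 with DESeq2, 195 with reads after codon 50, 1196 with the replicate block (the numbers do not pair these libraries by the 0.1 limit, though each correlated best with its own number), and 9 (without vehicle replicate 1) to 1656 (without vehicle replicate 3) with 1 library left out. At 60 min, 8 became 16, 19 and 51 in the same order, and 0 to 8. Between doses, 0 became 96, 5 and 390 at 10 min, and 0 to 2, and at 60 min 4 after codon 50 and 30 with the block. The change of effect with time had 1 call with DESeq2. In study 2 footprints, 13 became 29 after codon 50, 129 with the block, and 10 to 129. For mRNA, 0 became 1 with DESeq2, and 0 to 2. For TE, 4 became 11, 15 and 13, and 1 to 128.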
